A study of Orbilia oligospora with 12 samples.

Results

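The comparison is between wild-type hyphae of the nematode-trapping fungus Arthrobotrys oligospora (current name Orbilia oligospora) at 48 h of trap induction and at 0 h. It uses 6 of the 12 libraries of the series, chosen by their genotype and time labels: 3 of the wild type at 0 h and 3 of the wild type at 48 h. The other 6 libraries, of a strain labelled ΔAorlmA at the same times, enter the shared estimate of spread and the test of whether a change over time differed between strains. Per the labels, mycelium was grown for 5 days at 28 °C on potato dextrose agar. The RNA came from hyphae, and traps were induced with nematode extract. That treatment label is given to the 0 h libraries as well, and every 48 h library had both the extract and 48 h of further time. The effect of the extract and that of time or growth therefore cannot be told apart. The labels call the 3 replicates of a group biological and do not say that they came from separate cultures, so the p-values measure the spread between these libraries, which may be technical. In the labels' growth protocol the mutant is ΔAosnf1, another deletion. The MADS-box gene taken as AoRlmA (AOL_s00078g125, whose locus number matches the sample names) was not lost in the strain labelled ΔAorlmA, so that strain is called here only by its label.

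A. oligospora lives as a saprophyte on plant material and turns predatory when nematodes, or substances from them, are near: hyphal tips loop and fuse into adhesive networks that catch and then digest the animals. Building new cells needs ribosomes, whose assembly starts in the nucleolus with the transcription and trimming of ribosomal RNA and the stepwise loading of ribosomal proteins. It also needs carbon, which hyphae on a sugar-rich agar take up through sugar transporters and break down by glycolysis, and cell wall, which consists mainly of glucan and chitin. In filamentous fungi, velvet proteins and the methyltransferase-like LaeA link development with the production of secondary metabolites.

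At 48 h a larger share of wild-type transcripts came from genes for making ribosomes, and a smaller share from genes for using sugar. Genes for ribosome assembly factors and for cytosolic and mitochondrial ribosomal proteins were higher at 48 h in most of their members, by a median of 1.60, 1.18 and 1.02 on the log2 scale. Genes for glycolysis, for sugar transporters and for plant wall degrading enzymes were lower far more often than higher, with medians of -1.30, -0.86 and -0.90, as were genes for oxidative stress defence (-1.09) and the list of velvet, LaeA and FluG regulators (-1.05). The members called in the last list were velvet and LaeA-type genes, and no FluG gene was called. The median over all genes tested was -0.25. Under quantile normalization, where the median of all genes was 0.03, the medians of sugar transporters and plant wall enzymes were -0.35 and -0.32. In the strain labelled ΔAorlmA the medians of the first 3 of these lists were 0.66, 0.35 and 0.52, against 0.14 over all genes tested in that strain.

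Sequencing depth and base quality were alike at both times. The wild-type libraries held 48.5 to 59.0 M clean reads, with 94.4% to 94.7% of bases at quality 30, and the first 48 h library was the shallowest. The GC share of the reads was 47.9% to 48.2% at 0 h and 48.4% in all 3 libraries at 48 h. At least 1 TPM (a transcript level scaled for gene length and library depth) was measured for 8992 to 9177 genes at 0 h and for 8450 to 8632 genes at 48 h. The correlation of log2 levels with the other libraries of the same group averaged 0.949 to 0.979. The third 0 h library stood furthest from its group, with 352 genes more than 2-fold below both other 0 h libraries, against 138 and 20 genes for the first and second. At 48 h, the first library had 242 genes more than 2-fold above both others. General hyphal genes were looked up: all 15 tubulin and actin family genes and all 7 chitin synthases had at least 1 TPM in each of the 6 libraries. Such genes are not particular to hyphae, so their presence could not test the hyphal label. The summed levels of the tubulin and actin families were 3746 to 4416 TPM at 0 h and 3761 to 4128 TPM at 48 h. Of 17 genes whose annotation names conidiation, spores or hydrophobins, 10 had at least 1 TPM in all 6 libraries and 1 was at 0 in all 6. Their summed level was 2094 to 3162 TPM at 0 h and 637 to 1356 TPM at 48 h. Most of this sum came from the rodlet protein gene AOL_s00006g570, with means of 2449 TPM at 0 h and 763 TPM at 48 h. The change of this gene was not called (limma, adjusted p = 0.159). The part of spores in the results below was not tested. The labels give no marker of trap cells. In bulk RNA, fewer cells of a type and less RNA per cell cannot be told apart.

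A large part of the genes tested changed. Of 9355 genes that reached 1 TPM in 3 or more of the 12 libraries, 4338 (46.4%) were called at an adjusted p under 0.05 (limma on log2(TPM + 1), two-sided, Benjamini-Hochberg over all genes tested): 1650 (17.6%) were higher and 2688 (28.7%) lower at 48 h. At least 2-fold changes made up 1340 of the rises and 2257 of the falls, and at least 8-fold changes 95 and 245. Fold changes are on the log2(TPM + 1) scale, which understates the change of low genes. In 4257 of the called genes the 3 libraries of one time all lay above the 3 of the other. The balance of rises and falls depended on the scaling of the libraries. With TPM as deposited, 38.0% of the calls were rises, with median-of-ratios scaling 50.5% (2253 higher and 2207 lower, median -0.05) and with quantile normalization 53.3% (2273 higher and 1989 lower, median 0.03), so each change stands against the median of all genes under its scaling. Genes without a Swiss-Prot, KEGG or Pfam annotation were called higher in 255 of 2330 cases (10.9%) and lower in 749 (32.1%), and annotated genes in 1395 (19.9%) and 1939 (27.6%) of 7025. In the authors' deposited table, 2053 genes were marked up and 2477 down at 48 h. Of these, 1600 and 2102 were also called here in that direction, which is 77.9% and 84.9% of the authors' lists and 97.0% and 78.2% of the calls made here, and 0 were called the other way.

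**Figure D1:**
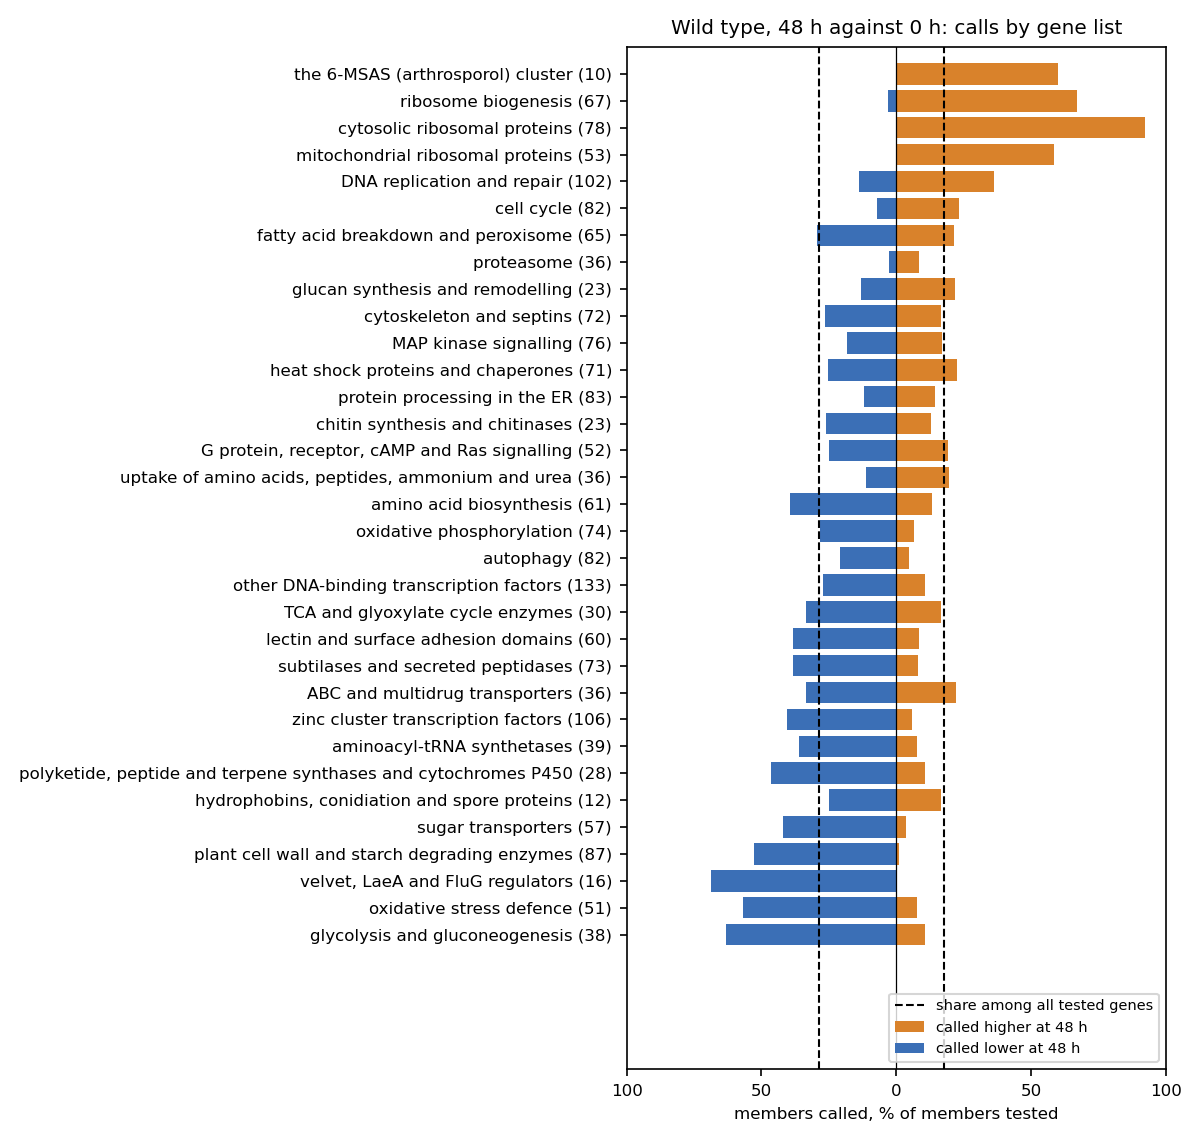
Members called higher (orange, to the right) and lower (blue, to the left) at 48 h in the wild type, as % of the members tested, for each gene list with at least 5 tested members. The number tested is in brackets, lists are ordered by their median log2 fold change, and the dashed lines mark the shares among all genes tested, 17.6% higher and 28.7% lower. The 6-methylsalicylic acid (6-MSAS) cluster has the highest median and sits at the top, with the lists for ribosomes next. Lists for sugar use, oxidative stress defence and velvet-type regulators sit at the bottom.

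Among the genes of protein making, the assembly factors had the largest median rise. Of 69 genes annotated to ribosome biogenesis, 67 passed the filter, and 45 (67.2%) were called higher and 2 (2.99%) lower. The shares over all genes tested were 17.6% and 28.7%. BRX1 (AOL_s00215g251), a factor for assembling the large subunit in yeast, stood at 14.1, 13.4 and 16 TPM at 0 h against 288, 335 and 351 TPM at 48 h. All 48 h libraries lay far above all 0 h libraries (log2 fold change 4.39 ± 0.34, adjusted p = 1.20e-05). DBP4 (AOL_s00006g364), an RNA helicase of the nucleolus, rose from 6.17 ± 0.911 to 101 ± 4.41 TPM (mean ± SD, n = 3, as in all such values below). Its log2 fold change of TPM + 1 was 3.84 ± 0.43 (± standard error, adjusted p = 4.47e-05), and changes written below as a value ± error are of this kind. EBP2 (AOL_s00004g473), which processes ribosomal RNA, had 26.9, 23.7 and 27.0 TPM at 0 h against 358, 369.7 and 347 TPM at 48 h, again with no overlap (log2 fold change 3.74 ± 0.33, adjusted p = 2.67e-05). A subunit of RNA polymerase I, the enzyme that transcribes ribosomal RNA, was called higher too: the gene with an A34 domain (AOL_s00054g504) rose by 3.74 ± 0.33 (adjusted p = 2.67e-05). So did the RNA cytidine acetyltransferase AOL_s00078g181 (3.56 ± 0.37), the nucleolar GTP-binding protein 1 AOL_s00076g264 (3.24 ± 0.34), the small-subunit processome protein UTP5 AOL_s00081g347 (3.19 ± 0.29) and the gene with a BUD22 domain AOL_s00215g71 (3.48 ± 0.33). Fibrillarin (AOL_s00097g410), which methylates ribosomal RNA, had 149 ± 17.0 TPM at 0 h against 587 ± 3.11 TPM at 48 h (1.98 ± 0.26). One of the 2 members that were lower was ribonuclease 3 (AOL_s00193g100), with 6.02 ± 0.325 TPM at 0 h against 1.49 ± 0.473 TPM at 48 h (log2 fold change -1.51 ± 0.37, adjusted p = 0.0057), and it lost its call under quantile normalization (adjusted p = 0.148). Without any one library, 43 to 45 members were called higher.

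Ribosomal protein genes changed by less per gene than the assembly factors but made up a far larger share of the transcript pool. All 78 cytosolic ribosomal protein genes passed the filter, and 72 (92.3%) were called higher and 0 (0%) lower. At an unadjusted p under 0.05 in the same limma fit, 75 were higher and 0 lower. Together they took 5.85%, 5.37% and 7.49% of all TPM in the 0 h libraries and 11.96%, 13.6% and 13.9% in the 48 h libraries. The share was larger in every 48 h library than in any 0 h library, and the third 0 h library was the highest of its group. The largest rise among them was that of L6-B (AOL_s00173g135), with 77.4, 65.0 and 120.0 TPM at 0 h against 277, 273 and 280.1 TPM at 48 h (log2 fold change 1.70 ± 0.38, adjusted p = 0.00323). The number called higher ranged from 49 to 72 when any one wild-type library was left out, and 1 member was called lower without the third 0 h library. The genes for assembly factors together took 0.396%, 0.342% and 0.357% of all TPM in the 0 h libraries and 1.04%, 1.04% and 1.11% in the 48 h libraries. All 53 mitochondrial ribosomal protein genes passed the filter as well, and 31 (58.5%) were called higher and 0 (0%) lower, with 38 and 0 at an unadjusted p under 0.05. The gene for the large-subunit protein yml6 (AOL_s00054g421) went up by 1.75 ± 0.34 (adjusted p = 0.00159) and had the largest rise of that list.

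Genes that charge transfer RNA did not follow the ribosome. Of 39 aminoacyl-tRNA synthetase genes tested, 3 (7.69%) were called higher and 14 (35.9%) lower, with a median of -0.62. The shares over all genes tested were 17.6% and 28.7%, with a median of -0.25. The cytoplasmic aspartate ligase AOL_s00076g658 had 178, 176 and 88.3 TPM at 0 h against 62.1, 25.2 and 9.60 TPM at 48 h (log2 fold change -2.45 ± 0.69, adjusted p = 0.0119). Its mitochondrial counterpart AOL_s00004g170 had 18.3 ± 2.24 TPM at 0 h against 39.8 ± 5.00 TPM at 48 h (log2 fold change 1.08 ± 0.31, adjusted p = 0.0128). Both calls were fragile: AOL_s00076g658 lost its call without the third 48 h library (adjusted p = 0.0611), and AOL_s00004g170 lost its call without the second 0 h library or the second 48 h library (adjusted p from 0.0548 to 0.0558). Without the second 0 h or the second 48 h library all 3 rises of the list lost their call, and without the first 48 h library 1 was called higher.

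**Figure D2:**
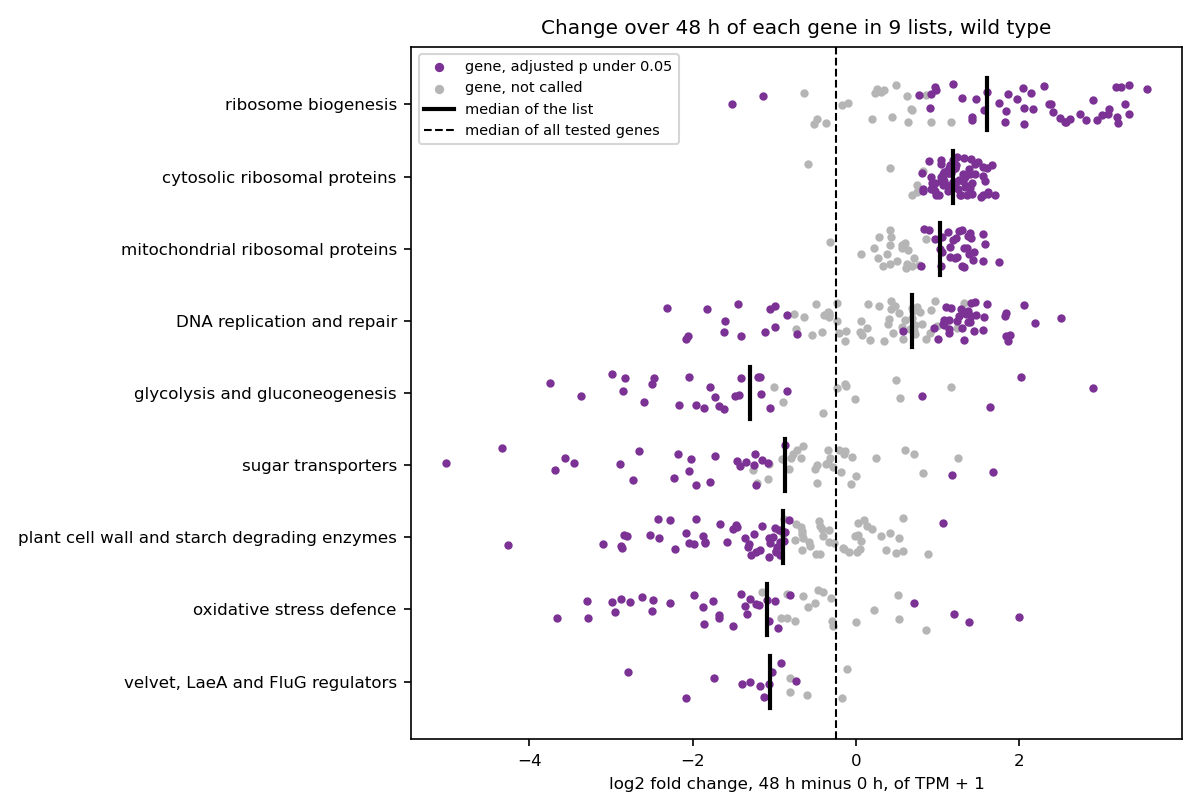
Change of every tested gene in 9 lists over 48 h in the wild type, as log2 fold change of TPM + 1 (positive values are higher at 48 h). Purple points are genes with an adjusted p under 0.05, grey points are genes not called, black bars are list medians and the dashed line is the median of all genes tested. The 3 ribosome lists lie mostly to the right of the dashed line, and the lists for glycolysis, sugar transporters, plant wall enzymes, oxidative stress defence and velvet-type regulators lie mostly to its left.

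Genes for breaking down sugar were mostly lower. Of 40 genes of glycolysis and gluconeogenesis, 38 passed the filter, and 4 (10.5%) were called higher and 24 (63.2%) lower. This compares with 17.6% and 28.7% over all genes tested. Fructose-bisphosphate aldolase (AOL_s00004g332) stood at 1394, 1257 and 1761 TPM at 0 h against 201, 206 and 148 TPM at 48 h, with a wide gap between the groups (log2 fold change -2.99 ± 0.29, adjusted p = 2.71e-05). Pyruvate decarboxylase (AOL_s00215g149), which opens the route to ethanol, had 711, 719 and 820.0 TPM at 0 h against 30.9, 98.8 and 53.5 TPM at 48 h, also without overlap (log2 fold change -3.75 ± 0.58, adjusted p = 0.000301). Hexokinase (AOL_s00112g89), which admits glucose to the pathway, fell from 391.8 ± 66.7 to 105 ± 59.0 TPM. Further called falls were glucose-6-phosphate isomerase AOL_s00079g9 (-2.85 ± 0.33), phosphoglucomutase AOL_s00004g302 (-2.48 ± 0.48), glyceraldehyde-3-phosphate dehydrogenase AOL_s00169g10 (-1.96 ± 0.31) and pyruvate kinase AOL_s00004g87 (-2.59 ± 0.42). A second aldolase gene, AOL_s00173g373, was called as well at 262, 208 and 33.4 TPM at 0 h against 13.9, 8.60 and 11.2 TPM at 48 h, with the third 0 h library well below the other two. Enzymes of the reverse route, gluconeogenesis, were lower too: fructose-1,6-bisphosphatase AOL_s00078g34 had a change of -2.17 ± 0.39 and phosphoenolpyruvate carboxykinase AOL_s00004g362 of -1.62 ± 0.46. Among the 4 rises was alcohol dehydrogenase 2 (AOL_s00110g284), at 45.6, 50.7 and 6.12 TPM at 0 h against 204, 119 and 290.2 TPM at 48 h (log2 fold change 2.90 ± 0.69, adjusted p = 0.00474). A further pyruvate decarboxylase was also among them (AOL_s00076g690; 2.02 ± 0.47). Phosphofructokinase (AOL_s00043g22) was called at -1.17 ± 0.37. This call was lost without the second or the third 0 h library or the second or the third 48 h library (adjusted p from 0.0557 to 0.0961). AOL_s00004g362 lost its call without the first 0 h library or the third 48 h library (adjusted p from 0.0548 to 0.0676).

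All glycolysis and gluconeogenesis genes together took 1.70%, 1.66% and 2.01% of all TPM in the 0 h libraries and 0.833%, 0.729% and 0.493% in the 48 h libraries, so the lowest 0 h library was above the highest 48 h library. Glycerol-3-phosphate dehydrogenase (AOL_s00054g748), which diverts a glycolytic intermediate to glycerol, stood at 2572, 1817 and 180.1 TPM at 0 h against 173, 128 and 135 TPM at 48 h. The third 0 h library was far below the other two and close to the 48 h libraries. It was called (log2 fold change -2.70 ± 0.84, adjusted p = 0.0191). This call was lost without the first or second 0 h library or the second or the third 48 h library (adjusted p from 0.0541 to 0.0839).

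Sugar transporter genes were lower in 24 of 57 tested members (of 70 in the table) and higher in 2. These are 42.1% and 3.51%, against 28.7% lower and 17.6% higher over all genes tested. The gene annotated as MST7, a monosaccharide transporter (AOL_s00080g195), had 1438, 1182 and 1598 TPM at 0 h against 83.4, 34.5 and 25.9 TPM at 48 h and so was far lower in every 48 h library (log2 fold change -5.01 ± 1.03, adjusted p = 0.00211). The glucose transporter gene mfs1 (AOL_s00054g267) had 50.2, 33.5 and 41.1 TPM at 0 h against 1.29, 1.12 and 0.86 TPM at 48 h, and these groups did not overlap either (log2 fold change -4.34 ± 0.32, adjusted p = 1.20e-05). The one gene named as lactose permease (AOL_s00081g21) rose by 1.68 ± 0.43 (adjusted p = 0.00776). The list together took 0.355%, 0.321% and 0.312% of all TPM in the 0 h libraries and 0.126%, 0.110% and 0.0935% in the 48 h libraries. Enzymes that break down plant walls and starch, the saprophytic toolkit, were lower in 46 of 87 tested members (of 156) and higher in 1. These are 52.9% and 1.15%, against the same 28.7% and 17.6%. The largest fall was that of endo-beta-1,4-glucanase D (AOL_s00169g245), at 98.5, 23.9 and 138 TPM at 0 h against 9.11, 1.23 and 1.19 TPM at 48 h (log2 fold change -4.26 ± 0.88, adjusted p = 0.00211). The only call upwards in this fit, glucoamylase (AOL_s00043g332; 1.07 ± 0.35), was lost in 4 settings, without the first or the third 0 h library or the first or second 48 h library (adjusted p from 0.0531 to 0.103). Many of these enzymes were low: with at least 5 TPM required in 3 libraries, 21 were called lower, and under quantile normalization 22 were lower and 7 higher. Quantile normalization gave 1989 lower and 2273 higher among all 9355 genes tested.

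Genes of mitochondrial and peroxisomal metabolism were called in both directions. Over all genes tested, 17.6% were called higher and 28.7% lower. For the TCA and glyoxylate cycles, 5 (16.7%) were called higher and 10 (33.3%) lower among 30 genes tested. NAD-dependent isocitrate dehydrogenase subunit 2 (AOL_s00109g30) rose from 266 ± 17.5 to 828 ± 81.5 TPM (1.63 ± 0.23), while cytoplasmic malate dehydrogenase (AOL_s00215g565) fell by 2.36 ± 0.40 log2 units. The falls of this list were not stable: with median-of-ratios scaling 3 genes were called lower, without the first 0 h library 3, without the third 48 h library 1, and 6 without the second 0 h or the second 48 h library or with the replicate number as a block. The rises were 3 without the second or the third 0 h library and 2 without the second 48 h library. The glyoxylate cycle lets fungi grow on fat and acetate. Its isocitrate lyase (AOL_s00075g130) was called at 1.07 ± 0.39. The call was lost without the second or the third 0 h library or the first or second 48 h library, with no filter on low values, or with only the 6 wild-type libraries in the fit (adjusted p from 0.0505 to 0.172). Without the third 0 h library the change was 0.60. Malate synthase (AOL_s00112g112), the second enzyme of that cycle, was not called (281, 189 and 53.2 TPM at 0 h against 92.2, 88.7 and 56.9 TPM at 48 h; log2 fold change -0.86 ± 0.50, adjusted p = 0.176). Its change was -1.56 and called without the third 0 h library (adjusted p = 0.00671), and -0.37 without the first. Oxidative phosphorylation genes took 3.14%, 3.04% and 3.58% of all TPM in the 0 h libraries and 2.45%, 2.47% and 2.43% in the 48 h libraries, lower in every 48 h library than in any 0 h library. Of these genes, 5 (6.76%) were called higher and 21 (28.4%) lower among 74 tested, the latter near the 28.7% over all genes tested. With median-of-ratios scaling 8 were higher and 12 lower. The vacuolar proton pump subunit A (AOL_s00007g404) had the largest fall of that list (-1.51 ± 0.36), and its largest rise was the nucleolar BUD22-domain gene named above, which entered the list through its annotation text. For fatty acid breakdown and peroxisomes, 14 (21.5%) were called higher and 19 (29.2%) lower among 65 genes, near the 17.6% and 28.7% over all genes tested. Mitochondrial acetyl-CoA acetyltransferase (AOL_s00176g25) rose by 2.62 ± 0.30 and the peroxisomal membrane protein PMP30B (AOL_s00083g431) by 2.68 ± 0.63, whereas D-amino-acid oxidase (AOL_s00097g114) had 2263, 2016 and 3096 TPM at 0 h against 381, 115 and 132 TPM at 48 h (log2 fold change -3.74 ± 0.51, adjusted p = 0.000132).

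**Figure D3:**
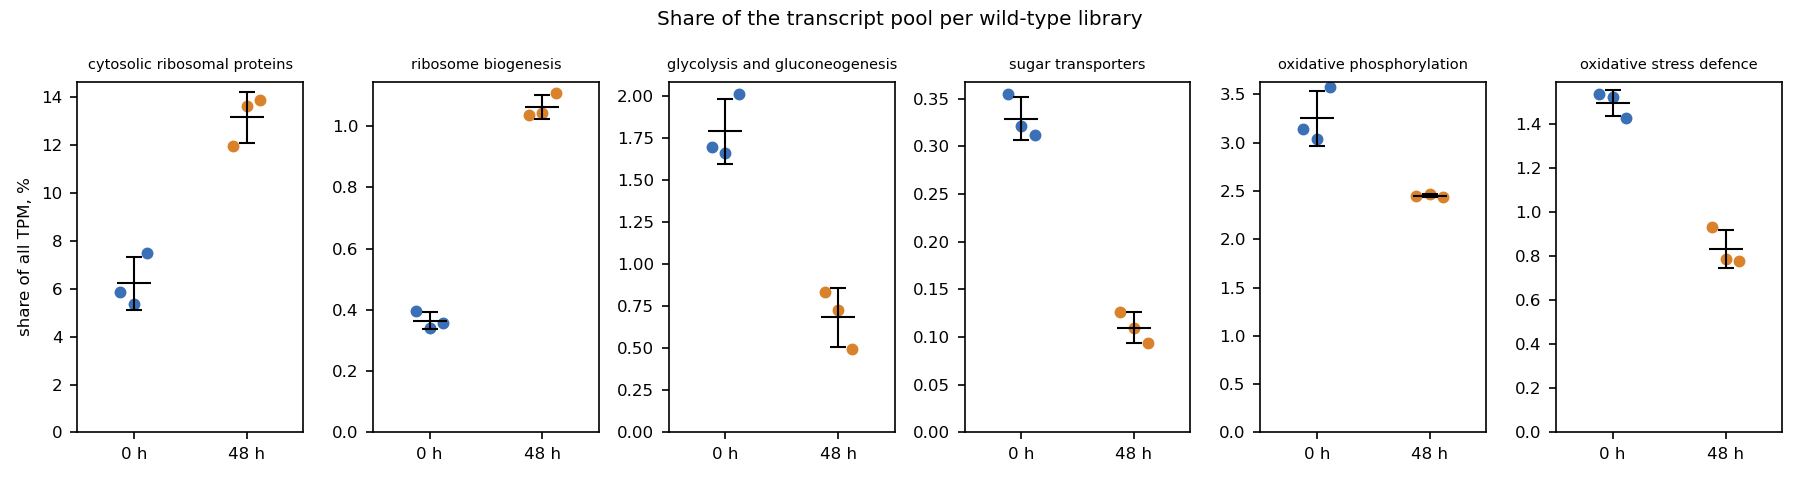
Share of all TPM taken by the genes of 6 lists in each wild-type library, in %, at 0 h (blue) and 48 h (orange). Points are libraries, and black marks are the mean ± SD of 3 libraries. The ribosome lists are higher in every 48 h library, and the lists for glycolysis, sugar transporters, oxidative phosphorylation and oxidative stress defence are lower in every 48 h library.

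Genes of amino acid synthesis were lower more often than higher, and fewer uptake genes were called lower. Of 61 amino acid synthesis genes tested, 8 (13.1%) were called higher and 24 (39.3%) lower. The largest fall was an aromatic amino acid aminotransferase (AOL_s00215g295), at 88.0, 78.6 and 87.9 TPM at 0 h against 7.10, 2.89 and 2.41 TPM at 48 h (log2 fold change -4.17 ± 0.46, adjusted p = 4.52e-05). The largest rise was that of the catalytic subunit of acetolactate synthase (AOL_s00004g283; 1.92 ± 0.28), which begins the synthesis of branched-chain amino acids. Rises in this list were 5 without the second 0 h library and 5 without the second 48 h library. Among 36 genes for uptake of amino acids, peptides, ammonium and urea, 7 (19.4%) were called higher and 4 (11.1%) lower, with 2 lower without the first 0 h or the third 48 h library. Over all genes tested, 17.6% were called higher and 28.7% lower. Uracil permease (AOL_s00215g195) had 243, 128 and 91.3 TPM at 0 h against 1328, 1048 and 1515 TPM at 48 h (log2 fold change 3.17 ± 0.46, adjusted p = 0.000194), with every 48 h library above every 0 h library. This gene and the purine permease below are named for bases of nucleic acids and entered the list through keywords in their annotation. A pair of vacuolar amino acid transporter genes were higher as well, YPQ1 (AOL_s00054g207; 2.85 ± 0.30) and YPQ3 (AOL_s00054g15; 2.28 ± 0.49). The general amino acid permeases and ammonium transporters looked up by role were, except AGP3, not called, but several were near the threshold. GAP1 (AOL_s00170g65) had 10.04, 24.6 and 29.0 TPM at 0 h against 34.5, 82.7 and 99.4 TPM at 48 h (log2 fold change 1.71 ± 0.74, adjusted p = 0.0725). Ammonium transporter MEP2 (AOL_s00043g163) had 501 ± 204 TPM at 0 h against 1099 ± 96.6 TPM at 48 h (log2 fold change 1.20 ± 0.47, adjusted p = 0.0516), MEP3 (AOL_s00080g393) a change of -1.35 ± 0.57 and ammonium transporter 1 (AOL_s00006g212) of -0.71 ± 0.29, with adjusted p from 0.0516 to 0.0725 over these 4. The permeases named GAP2 (AOL_s00007g298 and AOL_s00043g778) were at -0.32 ± 0.37 and -0.64 ± 0.49 and AGP2 (AOL_s00173g372) at -1.67 ± 0.77, none of them called in limma. Other settings called some of these genes. GAP1 passed with the replicate number as a block, without the first 48 h library, without the first libraries of the strain labelled ΔAorlmA and in the fit of the 6 wild-type libraries (adjusted p from 0.022 to 0.0489). MEP2 passed without the third 0 h library, with median-of-ratios scaling and in the last 2 of those fits (adjusted p from 0.00869 to 0.0325). Ammonium transporter 1 passed with the block, with quantile normalization and in the same 2 fits (adjusted p from 0.0124 to 0.0489), and AOL_s00043g778 without the first libraries of the strain labelled ΔAorlmA (adjusted p = 0.0409). Without the third 0 h library, MEP3 was at -1.98 (adjusted p = 0.0114) and AGP2 at -2.80 (adjusted p = 0.0018), both called; without the first 0 h library AGP2 was at -0.93. AGP3 (AOL_s00043g358) fell by 0.93 ± 0.24, and it lost its call under quantile normalization (adjusted p = 0.671). Purine permease (AOL_s00079g16) was called at -1.21 ± 0.44. This call was lost without any one 0 h library or any one 48 h library, with the replicate number as a block, under median-of-ratios scaling, or with no filter on low values (adjusted p from 0.0522 to 0.118). The nitrogen regulator areA (AOL_s00004g660) was at 62.4 ± 1.95 TPM at 0 h against 48.4 ± 6.80 TPM at 48 h and was not called (log2 fold change -0.37 ± 0.28, adjusted p = 0.288).

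Few genes of protein and organelle turnover were called, against 17.6% higher and 28.7% lower over all genes tested. For autophagy, by which cells digest their own contents, 4 (4.88%) were called higher and 17 (20.7%) lower among 82 genes tested, and median-of-ratios scaling gave 12 higher and 12 lower. The kinase ATG1 (AOL_s00076g234), which starts the process, had 28.7, 27.6 and 28.2 TPM at 0 h against 11.1, 7.20 and 5.53 TPM at 48 h, without overlap (log2 fold change -1.75 ± 0.30, adjusted p = 0.000673). ATG8 (AOL_s00007g534), which coats the growing membrane, had 1377 ± 14.6 TPM at 0 h against 866 ± 118 TPM at 48 h and was just outside the threshold (log2 fold change -0.68 ± 0.27, adjusted p = 0.0527). ATG8 was called with the replicate number as a block, with quantile normalization, in the fit of the 6 wild-type libraries and without the first libraries of the strain labelled ΔAorlmA (adjusted p from 0.00929 to 0.0498). The inositol polyphosphate multikinase AOL_s00006g55 had the largest fall of the list (-2.35 ± 0.38). The largest rise was the vacuolar fusion gene MON1 (AOL_s00083g59; 1.06 ± 0.37), which lost its call without the first or second 0 h library or the first or the third 48 h library (adjusted p from 0.0703 to 0.112). Without the first or second 0 h library or any one 48 h library, at most 1 gene of the list was called higher, and without the first or the third 0 h or the second or the third 48 h library 9 to 11 were called lower. Of 36 proteasome genes, 3 (8.33%) were called higher and 1 (2.78%) lower, and with median-of-ratios scaling 11 were higher. The single fall, subunit alpha type-1 (AOL_s00075g98; -1.07 ± 0.34), was not stable and lost its call without the second or the third 0 h library or the second or the third 48 h library or under median-of-ratios scaling (adjusted p from 0.0551 to 0.0975). Its largest rise, SLD2 (AOL_s00083g493; 2.01 ± 0.51), is a DNA replication factor that the keyword rule put in the list. Polyubiquitin (AOL_s00078g37) was among the most abundant transcripts and had 5382, 5079 and 4432 TPM at 0 h against 2875, 1539 and 2212 TPM at 48 h (log2 fold change -1.21 ± 0.35, adjusted p = 0.0129). It lost this call without the second 48 h library (adjusted p = 0.0702).

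Genes for copying DNA were called higher in a larger share than the 17.6% over all genes. Of 102 replication and repair genes tested, 37 (36.3%) were called higher and 14 (13.7%) lower, with a median of 0.68. The gene for the first subunit of the origin recognition complex (AOL_s00076g653), which marks where copying starts, had 10.1, 10.4 and 14.3 TPM at 0 h against 60.7, 51.2 and 68.9 TPM at 48 h (log2 fold change 2.29 ± 0.54, adjusted p = 0.00455). DNA polymerase delta (AOL_s00083g388) had 20.7, 20.7 and 21.2 TPM at 0 h against 92.2, 111 and 95.1 TPM at 48 h, and CDC18 (AOL_s00076g154), which loads the replicative helicase, had 58.1, 51.6 and 53.4 TPM at 0 h against 208, 212 and 238 TPM at 48 h. In all 3 genes the groups were fully separate, and the log2 fold changes of the last pair were 2.20 ± 0.49 and 1.99 ± 0.52. The helicase subunit MCM6 (AOL_s00006g301) was called at 1.56 ± 0.47, but it lost its call without the first or second 0 h library (adjusted p from 0.0518 to 0.063). The largest rise of the list was N-glycosylase/DNA lyase (AOL_s00043g692; 2.51 ± 0.61), a repair enzyme, and the largest fall the general transcription and DNA repair factor AOL_s00075g168 (-2.32 ± 0.47). Histone genes H2A (AOL_s00169g4) and H2B (AOL_s00169g5), adjacent in the gene order, had changes of 1.20 ± 0.35 and 1.23 ± 0.35 (adjusted p = 0.0134 and adjusted p = 0.0126). The number of replication and repair genes called higher was 21 without the first 0 h library and 22 without the second.

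Cell cycle genes were higher in 19 and lower in 6 of 82 tested members (23.2% and 7.32%), against 17.6% and 28.7% over all genes. That count of rises fell to between 7 and 10 when the first or second 0 h library or any one 48 h library was left out, and it was 29 with median-of-ratios scaling. The mitotic exit factor LTE1 (AOL_s00117g28), an exchange factor, rose by 1.90 ± 0.49, and the mitotic regulator slp1 (AOL_s00193g145) fell by 2.62 ± 0.61. In the cytoskeleton list, 12 (16.7%) were called higher and 19 (26.4%) lower among 72 genes. These shares were near those over all genes tested, 17.6% and 28.7%, and with median-of-ratios scaling 20 were higher and 13 lower. The septin gene spn2 (AOL_s00188g32), whose family builds rings and collars at sites of cell shape change, had 71.6, 75.1 and 105 TPM at 0 h against 415, 431 and 525 TPM at 48 h (log2 fold change 2.44 ± 0.46, adjusted p = 0.00117). A further septin gene, spn1 (AOL_s00215g893), rose by 1.5 ± 0.30. The summed level of the tubulin and actin families overlapped between the times, as given above, while single genes of the filament system were lower. Profilin (AOL_s00043g54), which feeds actin filaments, had 1900.2, 1761 and 2192 TPM at 0 h against 775, 429 and 438 TPM at 48 h, and tropomyosin-2 (AOL_s00054g836), which lines them, had 2789 ± 337 TPM at 0 h against 982 ± 154 TPM at 48 h (-1.88 ± 0.27 and -1.51 ± 0.30 on the log2 scale). Tubulin alpha-2 (AOL_s00078g243) was lower by 2.26 ± 0.37 (adjusted p = 0.000473). Left out one at a time, the first or second 0 h library or any one 48 h library reduced the rises in the cytoskeleton list to 6 or 7, and without the second 48 h library 11 members were lower.

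The cell wall machinery changed gene by gene. FKS1 (AOL_s00054g491), the synthase of beta-1,3-glucan, had 77.6, 69.2 and 67.8 TPM at 0 h against 256, 250.1 and 192 TPM at 48 h, so that all 48 h libraries were above all 0 h libraries (log2 fold change 1.68 ± 0.25, adjusted p = 0.000247). Among enzymes that remodel glucan, gel3 (AOL_s00054g226) rose from 17.7 ± 0.754 to 98.8 ± 14.7 TPM (2.41 ± 0.38) and gas2 (AOL_s00043g350) was lower by 1.94 ± 0.33. Over the 23 glucan genes tested, 5 (21.7%) were called higher and 3 (13.0%) lower, against 17.6% and 28.7% over all genes tested. There were 3 rises when any one 0 h library or the first 48 h library was left out. A beta-1,3-glucan-binding protein (AOL_s00083g252) showed the largest rise of any annotated gene called with separate groups, at 4.80, 14.0 and 3.24 TPM at 0 h against 164, 307 and 428 TPM at 48 h (log2 fold change 5.28 ± 0.74, adjusted p = 0.000162). The gene AOL_s00083g253 beside it, with a glycosyltransferase domain, had 0, 1.11 and 0.06 TPM at 0 h against 21.9, 35.8 and 58.5 TPM at 48 h (log2 fold change 4.82 ± 0.63, adjusted p = 0.000112). The unannotated AOL_s00083g254 rose by 4.32 ± 0.94. A second glucan-binding gene, AOL_s00083g270, was called at 1.05 ± 0.36. It lost this call without any one 0 h library or the first or the third 48 h library (adjusted p from 0.0575 to 0.103).

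Of the 7 chitin synthases, which make the chitin of the wall, 1 was called. Chitin synthase 8 (AOL_s00210g37) was higher (54.5 ± 8.19 TPM at 0 h against 108 ± 13.8 TPM at 48 h; log2 fold change 0.98 ± 0.30, adjusted p = 0.0182). It lost this call without the third 0 h library or the second 48 h library (adjusted p from 0.0593 to 0.0705). The changes of the other 6 were 0.31 ± 0.24 for chitin synthase 6 (AOL_s00210g38), -0.25 ± 0.39 and 0.65 ± 0.28 for the genes named D (AOL_s00210g143 and AOL_s00078g76), -0.29 ± 0.52 for G (AOL_s00075g119), 0.30 ± 0.36 for C (AOL_s00075g153) and -0.64 ± 0.40 for 2 (AOL_s00079g31). Summed over the family, levels were 284 to 461 TPM at 0 h and 415 to 546 TPM at 48 h, which overlap. Chitin synthase D (AOL_s00078g76) was called with median-of-ratios scaling, in the fit of the 6 wild-type libraries and without the first libraries of the strain labelled ΔAorlmA (adjusted p from 0.0151 to 0.0244), and chitin synthase 2 in the fit of the wild-type libraries (adjusted p = 0.0157). Gene G shifted to -1.04 and was called without the third 0 h library. Chitinases went both ways: chitotriosidase-1 (AOL_s00210g223) rose by 1.72 ± 0.34 and endochitinase B (AOL_s00140g14) fell by 2.54 ± 0.31. In the whole chitin list, 3 (13.0%) were called higher and 6 (26.1%) lower among 23 tested, against 17.6% and 28.7% over all genes tested. There were 2 or 3 lower when the first or second 0 h or the second or the third 48 h library was left out, and 1 higher without the third 0 h or the second 48 h library.

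Surface and adhesion genes are the class to which trap adhesives would belong. With TPM as deposited they fell more often than they rose: 5 (8.33%) were called higher and 23 (38.3%) lower among 60 tested of 91. The shares over all genes tested were 17.6% and 28.7%. Under quantile normalization 10 were higher and 13 lower, against 2273 and 1989 of all 9355 genes tested. That share of falls was near the one over all genes. Without the second 48 h library 3 were higher, and with the replicate number as a block 8. The most abundant transcript at 48 h was one of them. A gene with a ricin-type lectin domain (AOL_s00043g240) had 15135, 15502 and 19654 TPM at 0 h against 39058, 43246 and 57867 TPM at 48 h. Its 48 h libraries were all higher (log2 fold change 1.47 ± 0.36, adjusted p = 0.00532). This gene lost its call with no filter on low values or under quantile normalization (adjusted p from 0.054 to 0.367). A pair of CFEM-domain genes, a cysteine-rich surface class of fungi, rose: AOL_s00054g988 by 2.80 ± 0.40 and AOL_s00173g117 by 1.77 ± 0.43. ECM33 (AOL_s00075g5), a cell wall protein, rose by 2.75 ± 0.39. On the falling side, a fucose-specific lectin (AOL_s00076g540) had 103, 265 and 262 TPM at 0 h against 3.84, 5.08 and 2.69 TPM at 48 h (log2 fold change -5.34 ± 0.74, adjusted p = 0.000156). A further ricin-type lectin gene (AOL_s00215g496) had 720.2, 934 and 970.0 TPM at 0 h against 31.2, 60.9 and 38.4 TPM at 48 h (log2 fold change -4.34 ± 0.48, adjusted p = 4.31e-05). Neither pair of groups overlapped. The mannose-specific lectin gene AOL_s00006g511 had 26.4, 445 and 64.2 TPM at 0 h against 1.04, 1.76 and 2.41 TPM at 48 h (log2 fold change -5.11 ± 0.89, adjusted p = 0.000705), with a spread at 0 h as large as its mean.

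Secreted peptidases, with which the fungus digests protein and, in prey, cuticle, were lower in 28 (38.4%) and higher in 6 (8.22%) of 73 tested genes (of 110). Over all genes tested the shares were 28.7% lower and 17.6% higher. Without the second 48 h library, 18 were lower, and with median-of-ratios scaling 11 were higher and 21 lower. Under quantile normalization 9 were higher and 18 lower, with a list median of -0.04 against 0.03 over all genes. By the same normalization, 2273 of all 9355 genes tested were higher and 1989 lower. Leucine aminopeptidase 1 (AOL_s00076g646) fell by 4.32 ± 0.58, metallocarboxypeptidase A (AOL_s00210g234) fell by 3.85 ± 0.65 and tripeptidyl-peptidase sed3 (AOL_s00054g268) fell by 3.75 ± 0.52. Subtilisin-like protease 2 (AOL_s00215g702) went the other way, at 5.31, 2.68 and 11.9 TPM at 0 h against 65.3, 137 and 79.0 TPM at 48 h (log2 fold change 3.75 ± 0.75, adjusted p = 0.00174). The pair of genes annotated as cuticle-degrading serine proteases were not called. AOL_s00075g8 had 1.49, 1.02 and 1.77 TPM at 0 h against 17.2, 6.77 and 12.6 TPM at 48 h (log2 fold change 2.37 ± 1.06, adjusted p = 0.0824). AOL_s00076g4 had 342, 179 and 689 TPM at 0 h against 411, 601 and 403 TPM at 48 h (log2 fold change 0.41 ± 0.46, adjusted p = 0.483). For AOL_s00075g8 the 48 h libraries were all above the 0 h libraries, and in a fit of the 6 wild-type libraries alone it was called (adjusted p = 0.00106; over its alternatives adjusted p ran from 0.00106 to 0.186). A pair of genes for peptidase inhibitors of family I66 fell. The most abundant transcript of the 0 h group, AOL_s00215g748, had 12893, 31926 and 22188 TPM at 0 h against 2293, 2711 and 3749 TPM at 48 h (log2 fold change -2.87 ± 0.49, adjusted p = 0.000655). AOL_s00054g904 had 179, 476 and 792 TPM at 0 h against 2.16, 6.67 and 2.26 TPM at 48 h (log2 fold change -6.57 ± 0.95, adjusted p = 0.000194).

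Regulators of conidiation were called lower or had a fitted change near 0 and no call. The conidiophore regulators abaB (AOL_s00004g408) and abaA (AOL_s00080g63) fell by 2.39 ± 0.41 and 1.53 ± 0.33, with 30.7, 31.1 and 28.7 TPM at 0 h against 7.13, 5.28 and 3.09 TPM at 48 h for abaB. The genes annotated as brlA (AOL_s00097g514) and wetA (AOL_s00173g221) had changes of -0.08 ± 0.67 and -0.07 ± 0.31 and were not called. The rodlet protein gene (AOL_s00006g570), a hydrophobin that coats spores and aerial hyphae, had 2670.5, 1793 and 2883 TPM at 0 h against 740.4, 1115 and 434 TPM at 48 h (log2 fold change -1.75 ± 0.99, adjusted p = 0.159). It was called when only the 6 wild-type libraries were fitted (adjusted p = 0.00507, against 0.0597 to 0.349 over its other alternatives). A second hydrophobin, AOL_s00007g172, had a change of 0.11 ± 0.36 (not called), and the hydrophobin AOL_s00075g89 stayed under the filter. Sporulation-specific protein 71 (AOL_s00109g105) was called at 1.25 ± 0.37, and it lost its call without the second 48 h library (adjusted p = 0.0549). Over the list, 2 (16.7%) were called higher and 3 (25.0%) lower among 12 tested of 17, near the 17.6% and 28.7% over all genes tested. With the first 48 h library left out, 5 were lower.

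None of the 16 velvet, LaeA-type and FluG genes was called higher and 11 were lower, with a log2 fold change below 0 in all 16, except that AOL_s00006g81 and AOL_s00043g361 were above 0 with median-of-ratios scaling and the former with quantile normalization (limma; at an unadjusted p under 0.05, 0 higher and 14 lower). The shares over all genes tested were 17.6% higher and 28.7% lower. With other settings fewer of the 16 passed: 7 were called lower with median-of-ratios scaling, 8 with quantile normalization, and 7 without the first 0 h or the third 48 h library. RYP2 (AOL_s00054g700), a velvet regulator of spore development, had 66.5, 61.7 and 39.6 TPM at 0 h against 13.8, 16.03 and 7.96 TPM at 48 h (log2 fold change -2.08 ± 0.39, adjusted p = 0.00116). VELC (AOL_s00043g589) fell by 1.74 ± 0.41, and the velvet B subunit (AOL_s00054g811) by 1.07 ± 0.36. The veA gene (AOL_s00169g18) had 138 ± 67.0 TPM at 0 h against 73.4 ± 16.8 TPM at 48 h and missed the threshold (log2 fold change -0.81 ± 0.34, adjusted p = 0.0678). It was called with the replicate number as a block (adjusted p = 0.0409) and, at -1.19, without the third 0 h library (adjusted p = 0.00994), and was at -0.46 without the first. The gene named laeA (AOL_s00076g266) had 3.36, 3.60 and 3.40 TPM at 0 h against 0.97, 0.82 and 0.65 TPM at 48 h (log2 fold change -1.30 ± 0.22, adjusted p = 0.000635). Of the 10 further genes annotated as LAE1, the largest change was that of AOL_s00081g104 at 235, 146 and 182 TPM at 0 h against 31.8, 26.1 and 20.7 TPM at 48 h (log2 fold change -2.79 ± 0.38, adjusted p = 0.000151). The others called were AOL_s00110g308 (-1.39 ± 0.31), AOL_s00081g52 (-1.17 ± 0.29), AOL_s00173g181 (-1.03 ± 0.26), AOL_s00081g151 (-1.12 ± 0.42), AOL_s00193g139 (-0.92 ± 0.31) and AOL_s00083g205 (-0.74 ± 0.28). No FluG gene was among the 11 called. Several of these calls were lost in other settings. AOL_s00043g589 lost its call under quantile normalization (adjusted p = 0.0556), AOL_s00076g266 also under quantile normalization (adjusted p = 0.0557) and AOL_s00173g181 also under quantile normalization (adjusted p = 0.124). AOL_s00054g811 lost its call without the first or second 0 h library or the second or the third 48 h library or under median-of-ratios scaling (adjusted p from 0.0604 to 0.108). AOL_s00193g139 lost its call without the first 0 h library or the second or the third 48 h library or under median-of-ratios scaling (adjusted p from 0.0527 to 0.12). AOL_s00081g151 lost its call without any one 0 h library or the first or the third 48 h library, under median-of-ratios scaling, with no filter on low values, or under quantile normalization (adjusted p from 0.0583 to 0.174). AOL_s00083g205 lost its call without any one 0 h library or the second or the third 48 h library, with the replicate number as a block, or under median-of-ratios scaling (adjusted p from 0.0555 to 0.141). With a pseudocount of 0.1 TPM the changes of AOL_s00076g266 and AOL_s00173g181 were -1.97 and -2.65.

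Genes of the signalling lists were called in both directions. In the MAP kinase list, which carries cell wall, mating and osmotic signals, 13 (17.1%) were called higher and 14 (18.4%) lower among 76 tested, against 17.6% and 28.7% over all genes, and with median-of-ratios scaling 17 were higher and 11 lower. The counts fell to 7 higher without the second or the third 0 h or the first or second 48 h library, and to between 6 and 8 lower without the second 0 h or the second or the third 48 h library. The cell wall integrity kinase spm1 (AOL_s00173g235) had 219, 229.7 and 285 TPM at 0 h against 111, 80.9 and 92.7 TPM at 48 h, with no overlap (log2 fold change -1.36 ± 0.24, adjusted p = 0.000702). The remaining kinases looked up by role were not called: the gene annotated only as mitogen-activated protein kinase (AOL_s00110g154) had 194 ± 26.9 TPM at 0 h against 145 ± 13.0 TPM at 48 h (-0.41 ± 0.30), HOG1 (AOL_s00109g23) a change of -0.27 ± 0.56 and its activator PBS2 (AOL_s00097g443) of -0.19 ± 0.39. The energy sensor SNF1 (AOL_s00173g192) fell, with 103, 108 and 109 TPM at 0 h against 54.7, 36.3 and 28.5 TPM at 48 h (log2 fold change -1.45 ± 0.30, adjusted p = 0.00238). Barrierpepsin (AOL_s00007g233), a peptidase that in yeast destroys mating pheromone and that entered the MAP kinase list through its annotation, fell by 3.11 ± 0.39.

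In the list of G proteins, receptors, cAMP and Ras signalling, 10 (19.2%) were called higher and 13 (25.0%) lower among 52 tested, near the shares over all genes. With median-of-ratios scaling 12 were higher and 9 lower, and 8 were lower without the second 0 h or the second or the third 48 h library. A pair of genes for regulators of G protein signalling, which switch G alpha subunits off, had strong falls. AOL_s00043g257 had 75.8, 73.3 and 53.5 TPM at 0 h against 8.97, 10.6 and 7.92 TPM at 48 h (log2 fold change -2.74 ± 0.42, adjusted p = 0.000309). AOL_s00110g71 had 111, 86.8 and 97.9 TPM at 0 h against 26.1, 15.3 and 16.4 TPM at 48 h (log2 fold change -2.33 ± 0.33, adjusted p = 0.000176). In both, the highest 48 h library was below the lowest 0 h library. The regulatory subunit of the cAMP-dependent protein kinase (AOL_s00075g84), which holds the kinase inactive, fell by 1.85 ± 0.32 (adjusted p = 0.000678). A Ras-like gene (AOL_s00083g472) rose by 1.84 ± 0.35 and a G alpha subunit gene (AOL_s00075g181) by 0.83 ± 0.23. A G beta subunit gene (AOL_s00004g438; 0.81 ± 0.31) was called. The call was lost without any one 0 h library or any one 48 h library or without the variance trend (adjusted p from 0.051 to 0.113).

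With TPM as deposited, zinc cluster genes were lower in a larger share than the 28.7% over all genes tested. Other transcription factor genes were lower in a share near it. Of 106 zinc cluster factors, a class that in fungi often controls nutrient use and metabolite clusters, 6 (5.66%) were called higher and 43 (40.6%) lower. With quantile normalization 13 were higher and 24 lower, against 2273 and 1989 of all 9355 genes tested. That share of falls was near the one over all genes. With median-of-ratios scaling 14 were higher and 36 lower, against 2253 and 2207 of all genes. In fits without the second or the third 0 h or the second 48 h library, 2 or 3 zinc cluster genes were higher. Zinc finger protein 1 (AOL_s00054g776) had 139, 83.7 and 30.6 TPM at 0 h against 7.16, 5.38 and 3.73 TPM at 48 h (log2 fold change -3.52 ± 0.61, adjusted p = 0.000713). The largest rise of the zinc cluster list was 1.39 ± 0.34, in AOL_s00076g22. A further regulator gene, AOL_s00043g432, fell by 2.75 ± 0.28. Of 133 other DNA-binding factors, 14 (10.5%) were called higher and 36 (27.1%) lower, and with quantile normalization 24 and 31, with 7 or 8 rises when the second 0 h or the first or second 48 h library was left out. Of the 3 MADS-box genes, the family of AoRlmA, 1 was called higher and 1 lower. MCM1 (AOL_s00112g128) rose by 0.87 ± 0.21 (adjusted p = 0.00507), AOL_s00088g15 fell by 1.58 ± 0.32 (adjusted p = 0.00181), and AOL_s00078g125, taken as AoRlmA, had 38.5, 39.99 and 30.2 TPM at 0 h against 32.3, 45.1 and 27.9 TPM at 48 h and was not called (log2 fold change -0.06 ± 0.31, adjusted p = 0.881). Its levels in the strain labelled ΔAorlmA were 72.2, 116 and 164 TPM at 0 h against 109, 96.9 and 87.3 TPM at 48 h, all above the wild type, so that a loss of this gene was not seen in the strain labelled for it.

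Genes of oxidative stress defence were mostly lower. Of 51 genes tested, 4 (7.84%) were called higher and 29 (56.9%) lower, against 17.6% and 28.7% over all genes tested. The list took 1.53%, 1.52% and 1.43% of all TPM in the 0 h libraries and 0.932%, 0.784% and 0.777% in the 48 h libraries. Mitochondrial manganese superoxide dismutase (AOL_s00007g292), which clears superoxide, had 169, 113 and 236 TPM at 0 h against 14.96, 10.4 and 11.3 TPM at 48 h, without overlap (log2 fold change -3.66 ± 0.46, adjusted p = 8.36e-05). Thioredoxin-1 (AOL_s00170g77) fell by 3.29 ± 0.63 and a catalase (AOL_s00173g374) by 1.18 ± 0.28. The largest rise in the list, a lactoylglutathione lyase (AOL_s00043g110; 1.998 ± 0.48), is an enzyme of methylglyoxal removal. Flavohemoprotein (AOL_s00043g392), which detoxifies nitric oxide, had 847, 446 and 521 TPM at 0 h against 21.4, 17.5 and 7.29 TPM at 48 h and was one of the 10 largest falls among annotated genes (log2 fold change -5.27 ± 0.61, adjusted p = 5.64e-05).

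Over 71 heat shock and chaperone genes, 16 (22.5%) were called higher and 18 (25.4%) lower, near the 17.6% and 28.7% over all genes tested. With median-of-ratios scaling 20 were higher and 16 lower, and 10 were higher without the second 0 h or the second or the third 48 h library. The stress-type chaperones HSP90 (AOL_s00083g179) and HSP70-2 (AOL_s00215g255) fell, with 831, 1173 and 1736 TPM at 0 h against 445, 226 and 176 TPM at 48 h for HSP90 (-2.19 ± 0.57) and 3150.4 ± 369.5 TPM at 0 h against 410.5 ± 263 TPM at 48 h for HSP70-2 (-3.15 ± 0.62). A DnaJ co-chaperone (AOL_s00097g305) fell by 3.82 ± 0.50. SSB1 (AOL_s00007g116), which sits on the ribosome and helps new chains fold, had 427, 364 and 311 TPM at 0 h against 1247, 1728 and 1734 TPM at 48 h and so was higher in every 48 h library (log2 fold change 2.09 ± 0.27, adjusted p = 9.41e-05). SCJ1 (AOL_s00083g354), a DnaJ-related protein of the endoplasmic reticulum in yeast, rose by 2.30 ± 0.30. In protein processing in the endoplasmic reticulum, 12 (14.5%) were called higher and 10 (12.05%) lower among 83, against 17.6% and 28.7% over all genes. With median-of-ratios scaling 18 were higher and 7 lower, and 6 were lower without the second 0 h or the second or the third 48 h library. Among ABC and multidrug transporters, 8 (22.2%) were called higher and 12 (33.3%) lower of 36 tested, with 5 higher without the third 0 h or the first 48 h library and 6 or 7 lower without the third or second 48 h library. The gene named aclQ (AOL_s00075g58) rose by 2.82 ± 0.34, and one similar to a retinal-specific ABC transporter (AOL_s00004g626) fell by 3.003 ± 0.43. The plasma membrane proton pump (AOL_s00007g539) rose by 1.14 ± 0.31 (adjusted p = 0.00926).

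Genes of secondary metabolism were lower more often than higher, and those of 1 cluster were higher. Of 28 polyketide, peptide and terpene synthase and cytochrome P450 genes tested (of 37), 3 (10.7%) were called higher and 13 (46.4%) lower. The shares over all genes tested were 17.6% and 28.7%. Under quantile normalization 7 of the list were lower, against 1989 of all 9355 genes tested. Without the second 48 h library 1 of the list was higher. A multifunctional cytochrome P450 gene (AOL_s00176g104) had the largest fall (-3.52 ± 0.41). The 10 genes of the 6-methylsalicylic acid (6-MSAS) cluster, AOL_s00215g274 to AOL_s00215g283, which makes arthrosporols, were higher in 6 and lower in 0 (limma; 7 and 0 at an unadjusted p under 0.05), with a median of 2.31. The 6 called genes are adjacent, from AOL_s00215g276 to AOL_s00215g281. The polyprenyl transferase yanG (AOL_s00215g276) had 3.78, 8 and 4.43 TPM at 0 h against 22.8, 114 and 135 TPM at 48 h (log2 fold change 3.55 ± 0.83, adjusted p = 0.00436), the oxidoreductase yanE (AOL_s00215g277) had 28.8, 14.2 and 12.9 TPM at 0 h against 68.8, 245 and 281 TPM at 48 h (3.196 ± 0.69) and the P450 gene AOL_s00215g278 a change of 3.33 ± 0.74. The first 48 h library was the lowest of its group in yanG and yanE. The 6-MSA decarboxylase AOL_s00215g281 rose by 2.55 ± 0.72. The synthase itself, AOL_s00215g283, had 0.43, 1.48 and 0.59 TPM at 0 h against 1.60, 5.64 and 4.61 TPM at 48 h and was not called (log2 fold change 1.37 ± 0.88, adjusted p = 0.218). It was called in the fit of the 6 wild-type libraries (adjusted p = 0.0217) and without the first libraries of the strain labelled ΔAorlmA (adjusted p = 0.0337), and its change was 2.10 with a pseudocount of 0.1 TPM. The cluster took 0.0225%, 0.0278% and 0.0206% of all TPM in the 0 h libraries and 0.0260%, 0.0637% and 0.0718% in the 48 h libraries, so the first 48 h library lay within the 0 h range.

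The largest single changes came from genes of mixed or unknown role. Beside the glucan-binding and nucleolar genes above, the 10 largest rises among annotated genes included an F-box gene (AOL_s00169g118), at 5.93, 3.88 and 6.72 TPM at 0 h against 179.8, 204 and 269.7 TPM at 48 h (log2 fold change 5.08 ± 0.51, adjusted p = 3.00e-05). They also included a gene annotated by similarity to a zinc finger CCCH protein (AOL_s00215g453; 4.19 ± 0.66) and a short-chain dehydrogenase (AOL_s00173g381), at 227, 184 and 30.2 TPM at 0 h against 1269, 1448 and 1818 TPM at 48 h (log2 fold change 3.77 ± 0.68, adjusted p = 0.000924). The largest falls among annotated genes included a gene with a fungal cellulose-binding domain (AOL_s00004g323), at 222, 182 and 184 TPM at 0 h against 0, 4.77 and 2.48 TPM at 48 h (log2 fold change -6.17 ± 0.84, adjusted p = 0.00014). A gene similar to 6-hydroxy-D-nicotine oxidase (AOL_s00188g307) had 376, 673 and 883 TPM at 0 h against 9.78, 8.32 and 13.9 TPM at 48 h (log2 fold change -5.73 ± 0.60, adjusted p = 3.30e-05). A formamidase gene (AOL_s00043g399) had 492, 509 and 675 TPM at 0 h against 13.2, 6.81 and 9.55 TPM at 48 h (log2 fold change -5.72 ± 0.64, adjusted p = 4.60e-05). In these genes no 48 h library reached the lowest 0 h library. The remaining falls of this rank were an adenylate-forming reductase (AOL_s00076g157; -5.31 ± 0.59), a PLAC8-family gene (AOL_s00078g588; -5.30 ± 0.55), a SET-domain gene (AOL_s00081g77; -5.25 ± 0.37) and AOL_s00080g333 (-6.37 ± 0.64), whose only annotation is a KEGG entry. Among genes without annotation, AOL_s00043g462 had 76.6, 76.2 and 98.6 TPM at 0 h against 2990.0, 3496 and 5955 TPM at 48 h (log2 fold change 5.56 ± 0.76, adjusted p = 0.00014), which put it among the 15 most abundant transcripts at 48 h. AOL_s00076g128 and AOL_s00004g22 rose by 4.63 ± 0.68 and 4.34 ± 0.70. AOL_s00169g35 had the largest fall of any gene named, at 692, 1153 and 1688 TPM at 0 h against 6.74, 9.27 and 9.34 TPM at 48 h (log2 fold change -6.88 ± 0.68, adjusted p = 2.95e-05). It stood ahead of AOL_s00054g906 (-5.89 ± 0.70), AOL_s00080g1 (-5.41 ± 0.66) and AOL_s00043g389 (-5.40 ± 0.53).

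**Figure D4:**
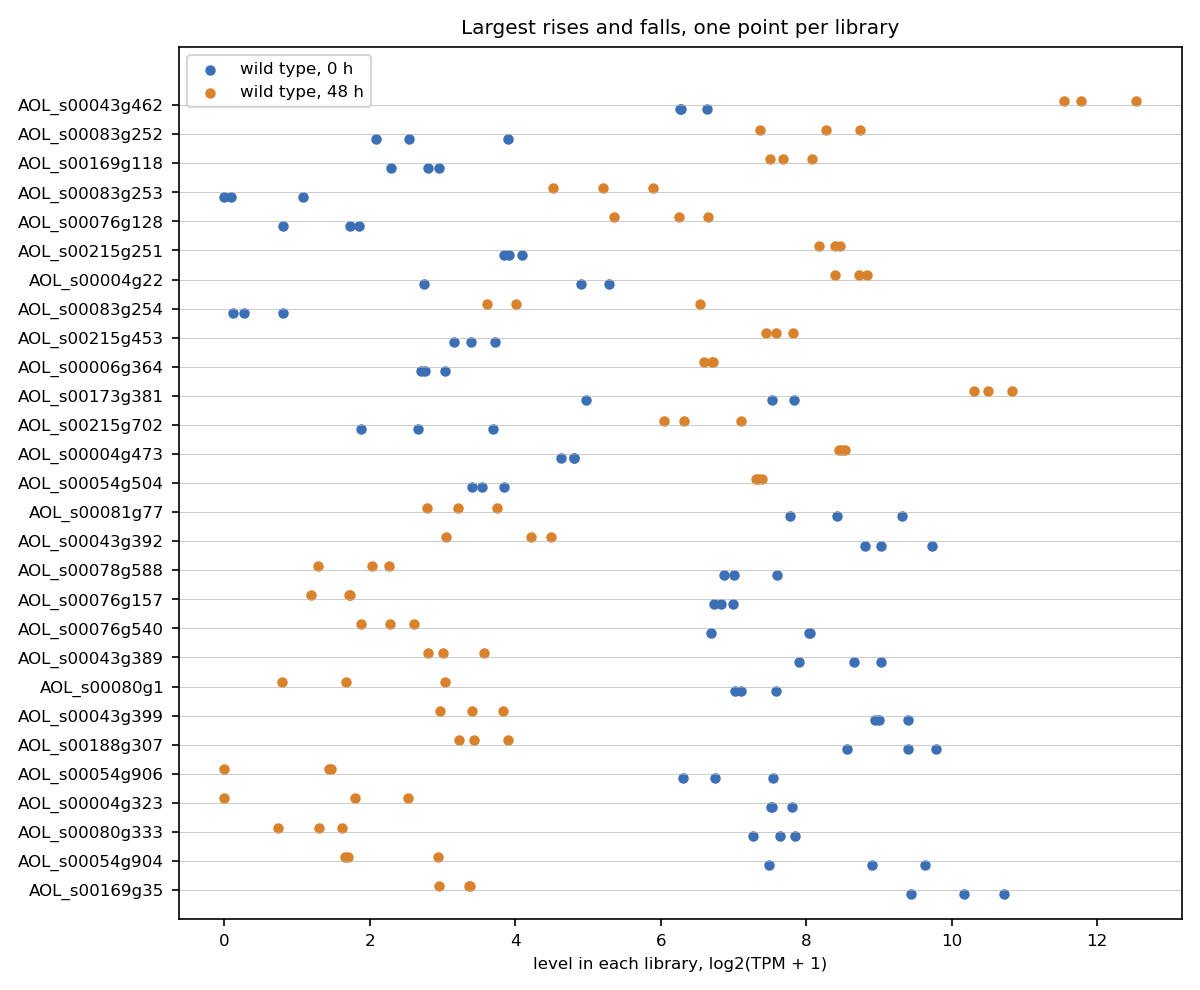
Level of the 28 genes with the largest rises and falls in each of the 6 wild-type libraries, as log2(TPM + 1): 20 annotated and 8 unannotated genes, ordered by log2 fold change. Each point is 1 library, blue at 0 h and orange at 48 h. In every gene shown the 3 points of one time lie apart from the 3 of the other, which the rule for choosing the genes required.

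Several of the most abundant transcripts were called. The 10 most abundant genes held 9.02% to 13.0% of all TPM at 0 h and 11.6% to 14.1% at 48 h. The Woronin body protein gene (AOL_s00112g56), whose product plugs septal pores after injury, had 4002, 3849 and 3835 TPM at 0 h against 16008, 18216 and 17712 TPM at 48 h and was higher in each 48 h library than in any 0 h library (log2 fold change 2.15 ± 0.30, adjusted p = 0.000175). A gene with a domain of the von Hippel-Lindau type (AOL_s00210g255) had 2006, 9788 and 7874 TPM at 0 h against 133, 208 and 241 TPM at 48 h (log2 fold change -4.82 ± 0.73, adjusted p = 0.00028), with the first 0 h library well below the other two. The unannotated AOL_s00173g195 had 6685, 15013 and 10463 TPM at 0 h against 1061, 1556 and 1593 TPM at 48 h (log2 fold change -2.88 ± 0.44, adjusted p = 0.000305). Not every abundant gene moved past the test. The unannotated AOL_s00176g78 had 5265, 18458 and 7976 TPM at 0 h against 6124, 10783 and 6236 TPM at 48 h (log2 fold change -0.30 ± 0.44, adjusted p = 0.591), with overlapping groups. AOL_s00076g689, also unannotated, was called at 0.99 ± 0.32. The call was lost without the second or the third 0 h library or the second or the third 48 h library, with no filter on low values, or under quantile normalization (adjusted p from 0.0533 to 0.102).

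Called genes often lay side by side. Counting neighbours by consecutive locus numbers on a scaffold, there were 34 runs of at least 5 adjacent genes called in the same direction. The longest, 8 falling genes from AOL_s00173g191 to AOL_s00173g198, contained SNF1 (AOL_s00173g192) and the abundant AOL_s00173g195, with a median log2 fold change of -2.92. Another run of 5 falling genes, AOL_s00054g264 to AOL_s00054g268, held the glucose transporter mfs1 (AOL_s00054g267) and the peptidase sed3 (AOL_s00054g268). Among rising runs, AOL_s00004g535 to AOL_s00004g539 held the mitochondrial RNA polymerase and 4 genes of ribosome assembly and export, among them esf1 (AOL_s00004g536; 2.76 ± 0.32) and NMD3 (AOL_s00004g538; 0.98 ± 0.24). A run of 5 from AOL_s00083g252 to AOL_s00083g256 began with the glucan-binding gene. How many runs neighbouring genes would show without regard to time was not tested.

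For some genes the change over 48 h differed between the wild type and the strain labelled ΔAorlmA. The test of the difference itself, the interaction of strain and time in the same fit, called 414 genes (4.43%) at an adjusted p under 0.05. In 236 of these the fitted changes had the same sign in both strains and the larger size in the wild type, in 169 the signs differed, and in 9 the sign was the same and the size larger in the other strain. These are signs of fitted values, and a value near 0 in one strain counts as well. Among all 4338 genes called in the wild type, 3811 had the same sign of change in the strain labelled ΔAorlmA, whose own libraries gave 2009 calls (1212 higher and 797 lower). Genes called higher in the wild type had a median log2 fold change of 1.36 there and of 0.87 in the other strain, and genes called lower had -1.53 and -0.58. Over all genes tested the medians were -0.25 in the wild type and 0.14 in the strain labelled ΔAorlmA. The first libraries of the strain labelled ΔAorlmA stand apart from their groups. Leaving them out raised the calls of the interaction to 1349, and leaving out any one wild-type library lowered them to 17 to 240. Of the 30 named genes with a called difference, 4 to 19 were called without 1 wild-type library.

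Among the ribosome assembly genes, 13 of 67 had a called difference between strains, against 4.43% of all genes tested. For BRX1 (AOL_s00215g251) the change was 4.39 in the wild type and 1.74 in the strain labelled ΔAorlmA (difference 2.65 ± 0.48, adjusted p = 0.0195). Its levels in that strain were 34.1, 28.4 and 32.8 TPM at 0 h against 207, 69.9 and 86.2 TPM at 48 h, above the wild type at 0 h. For the glucan synthase FKS1 (AOL_s00054g491), the change was 1.68 in the wild type and -0.40 in the strain labelled ΔAorlmA (difference 2.08 ± 0.36, adjusted p = 0.0195), from 512, 285 and 394 TPM at 0 h against 337, 255 and 289.7 TPM at 48 h: these libraries were all above the wild type at 0 h. The glucose transporter mfs1 (AOL_s00054g267) had values of -4.34 in the wild type and -0.24 in the strain labelled ΔAorlmA (difference -4.10 ± 0.46, adjusted p = 0.00306), and was already low in that strain, with 1.12, 2.73 and 0.61 TPM at 0 h against 0.71, 1.35 and 0.94 TPM at 48 h. The regulator of G protein signalling AOL_s00043g257 went in opposite directions, -2.74 in the wild type and 1.61 in the strain labelled ΔAorlmA (difference -4.35 ± 0.60, adjusted p = 0.011). The gene similar to 6-hydroxy-D-nicotine oxidase (AOL_s00188g307) had values of -5.73 in the wild type and 0.08 in the strain labelled ΔAorlmA (difference -5.82 ± 0.84, adjusted p = 0.011). No member of the cytosolic or mitochondrial ribosomal protein lists, of the velvet list or of the 6-MSAS cluster had a called difference in limma (15, 3, 6 and 3 members had one at an unadjusted p under 0.05). Their medians in the strain labelled ΔAorlmA were 0.35, 0.52, -0.48 and 0.15, against 0.14 over all genes tested in that strain.

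**Figure D5:**
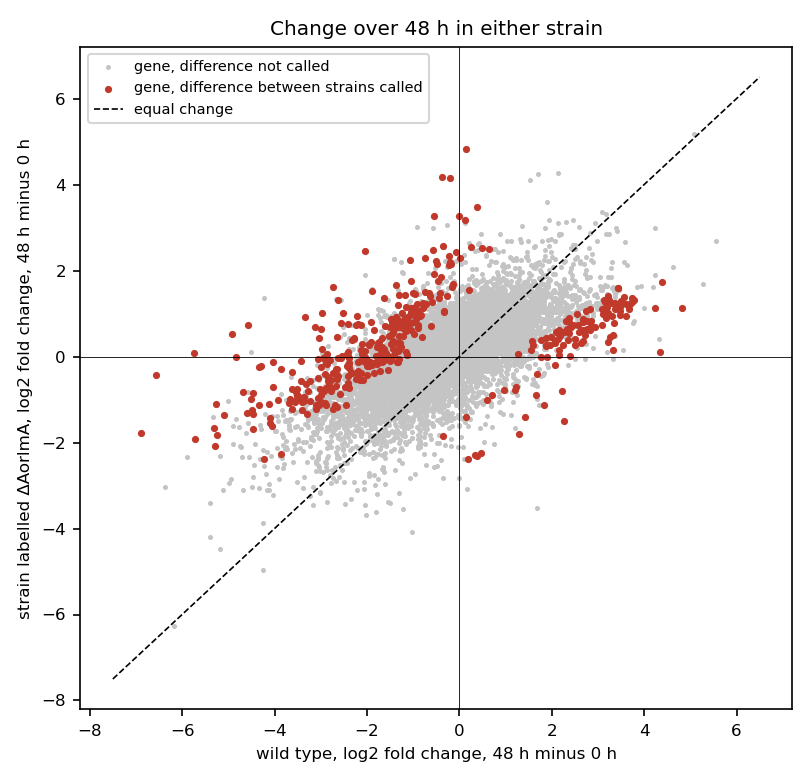
Log2 fold change of TPM + 1 over 48 h of each of the 9355 genes tested, in the wild type (horizontal axis) and in the strain labelled ΔAorlmA (vertical axis). Red points are the 414 genes whose change differed between the strains at an adjusted p under 0.05, grey points the rest, and the dashed line marks equal change. Of the red points, 236 have the same sign in both strains and lie further from 0 along the horizontal axis.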

How the data were processed

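RNA-seq of hyphae was deposited for 12 libraries, in 4 groups of 3 given by the genotype and time labels. Expression was taken from the TPM values that the authors deposited, rounded to 2 decimals, for 11479 genes, all of which matched RefSeq locus tags. The deposited FPKM table supplied the annotation and the coding length of each gene, and its FPKM values were TPM times a constant per library to within 0.00828% for genes above 100 TPM. The clean reads are counts of reads per library and the base quality and GC values are percent of bases, both per the file headers. The authors' deposited table of calls gives directions without fold changes or p-values. One further table carries raw counts in its name but holds library-to-library correlations and was left out, and 8 columns of group means were not used. The aligner, the counting tool and the genome build were, per the labels, not given in the sources used here. Without counts per gene, the counting error of a single value is unknown.

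The 9355 genes that reached 1 TPM in 3 or more of the 12 libraries were tested on log2(TPM + 1) with limma 3.58.1 in R 4.3.3, with 4 group means, moderated variances with a trend, no replicate block and Benjamini-Hochberg adjustment. An adjusted p under 0.05 was a call. The interaction was the wild-type change minus that of the strain labelled ΔAorlmA. The code was tested on simulated data. Tables were summarised with pandas 2.3.3.

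The comparison, and the 34 gene lists made by keywords in the deposited annotation, were chosen with earlier results of these data known. Named genes were the 10 largest rises and falls among annotated genes and the 4 largest among unannotated ones, counting only calls with groups that did not overlap and a mean of 5 TPM or more at the higher time. They also comprised the largest such rise and fall of each list, and genes picked by role whatever they did. Some others, such as polyubiquitin, septin spn1, HSP90 and the second aldolase, were chosen after their values were seen. Alternatives were pseudocounts of 0.1 and 0.5 TPM, no filter or a filter of 5 TPM, median-of-ratios scaling, quantile normalization, a replicate block, fits without the trend or with robust variances, a fit of the 6 wild-type libraries, fits without each wild-type library, and a fit without the first libraries of the strain labelled ΔAorlmA.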

Additional observations from a re-analysis of the deposited data

Results flagged for a closer look

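The change over 48 h differed between the wild type and the strain labelled ΔAorlmA in 414 genes by the test of the difference itself (limma, adjusted p under 0.05), and 30 of the genes named are among them. Each value that follows is the wild-type log2 fold change minus that of the other strain. Without the first libraries of the strain labelled ΔAorlmA, which stand apart from their groups, all 30 were called again. Without 1 wild-type library 4 to 19 of the 30 were called, with the replicate block 19 and with median-of-ratios scaling 23, and the sign of the difference was the same for all 30 in each of these fits.

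Among genes for ribosome making and folding of new chains, the difference was 2.65 for BRX1 (AOL_s00215g251), 2.48 for EBP2 (AOL_s00004g473), 2.43 for the BUD22-domain gene (AOL_s00215g71), 2.37 for the RNA polymerase I subunit (AOL_s00054g504) and 2.18 for RNA cytidine acetyltransferase (AOL_s00078g181). It was 2.04 for UTP5 (AOL_s00081g347), 1.93 for both esf1 (AOL_s00004g536) and nucleolar GTP-binding protein 1 (AOL_s00076g264), 1.53 for fibrillarin (AOL_s00097g410) and 1.52 for SSB1 (AOL_s00007g116). In these 10 genes both strains had a change above 0 and the wild type the larger one.

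Among the other rises, the difference was 4.22 for the unannotated AOL_s00004g22, 3.69 for the glycosyltransferase-domain gene AOL_s00083g253 and 2.08 for FKS1 (AOL_s00054g491).

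The differences of genes that fell in the wild type were negative. They were -1.94 for aldolase (AOL_s00004g332), -4.10 for the transporter mfs1 (AOL_s00054g267), -2.68 for superoxide dismutase (AOL_s00007g292), -4.18 for flavohemoprotein (AOL_s00043g392), -3.79 for formamidase (AOL_s00043g399) and -5.82 for the gene similar to 6-hydroxy-D-nicotine oxidase (AOL_s00188g307). Regulators gave -4.35 and -2.72 for the RGS genes AOL_s00043g257 and AOL_s00110g71, -1.99 for ATG1 (AOL_s00076g234) and -2.01 for the transcriptional regulator AOL_s00043g432. The ATG1 gene had a value of 0.24 for its own change in the strain labelled ΔAorlmA. Further values were -6.13 for the peptidase inhibitor AOL_s00054g904, -5.11 for the unannotated AOL_s00169g35 and -4.81 for the von Hippel-Lindau-type gene AOL_s00210g255. The adenylate-forming reductase AOL_s00076g157 had -3.65, the SET-domain gene AOL_s00081g77 -3.43, the PLAC8-family gene AOL_s00078g588 -3.21 and the cytochrome P450 gene AOL_s00176g104 -2.63.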

How the results depend on the processing

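Over the 17 alternatives, the count of genes called over 48 h in the wild type ran from 3235 without the second 0 h library to 5464 with only the 6 wild-type libraries in the fit. Leaving out 1 wild-type library gave 3235 to 3831 calls, with 1144 to 1539 higher and 1988 to 2516 lower. Quantile normalization turned the sign of 17 of the calls. The count for the difference between strains was less stable: from 414 it went to 260 with a pseudocount of 0.1 TPM, to 272 with the replicate block, to 1349 without the first libraries of the strain labelled ΔAorlmA and to 17 to 240 without 1 wild-type library, and the cause was not tested.

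Replicate numbers did not pair the libraries: the deviations of same-numbered 0 h and 48 h libraries from their group means correlated at -0.0807, 0.0437 and 0.0073 across genes. With the replicate number as a block, 4309 genes were called (1721 higher and 2588 lower).

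For single named genes, 3119 of 3277 repeated values kept direction and call, 96 lost the call, 39 gained one and 23 changed sign, and the last were all of genes that were not called. The log2 fold changes with the other sign were, with median-of-ratios scaling and quantile normalization, 0.155 and 0.0201 for AOL_s00078g125, 0.0186 and 0.150 for PBS2 (AOL_s00097g443), 0.126 and 0.565 for wetA (AOL_s00173g221) and 0.0378 and 0.194 for the LAE1-type AOL_s00006g81. They were 0.140 for brlA (AOL_s00097g514) with median-of-ratios scaling and, with quantile normalization, 0.305 and 0.0765 for the permeases AOL_s00007g298 and AOL_s00043g778 and 0.377 for chitin synthase D (AOL_s00210g143). Without 1 library, ranges crossed 0 for AOL_s00078g125 (-0.25 to 0.0837), AOL_s00097g443 (-0.41 to 0.0333), AOL_s00173g221 (-0.24 to 0.128), AOL_s00097g514 (-0.25 to 0.0599), hydrophobin AOL_s00007g172 (-0.19 to 0.40), chitin synthase G (AOL_s00075g119; -1.04 to 0.26), HOG1 (AOL_s00109g23; -0.84 to 0.18), the cuticle protease AOL_s00076g4 (-0.0673 to 0.90) and AOL_s00176g78 (-0.71 to 0.20).

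With 3 libraries a group and no counts per gene, small changes of low genes could not be separated from the spread between libraries.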
